A study of Mus musculus with 38 samples.

Results

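Ribosome footprints over 8 genes of polyamine metabolism were compared between the 5′ untranslated region (5′ UTR) and the coding sequence (CDS) in mouse cortical neurons. The 8 genes were taken from a list of names (Odc1, Amd1, Srm, Sms, Sat1, Oaz1, Oaz2 and Azin1), and all 8 were found among the 22401 genes of the tables. The data were 38 proximity-labeling ribosome profiling libraries in 14 groups, in which the biotin ligase TurboID, delivered to cultured neurons by lentivirus, biotinylated proteins near it, and footprints were sequenced from the monosome fraction (input) and from the part of it held by streptavidin beads (pulldown). TurboID-PSD95 carried the ligase on PSD95, the main scaffold of the excitatory postsynaptic density, and Pan-TurboID carried it without that scaffold and served as the reference for the whole cell. Cells were treated with cycloheximide for 2 min and, per the labels, labeled with biotin for 30 min; for DHPG the study's methods give a shorter labeling time. The KCl experiment held 8 groups of 3 libraries, input and pulldown of each construct, either at rest or depolarized with 55 mM KCl for 1 h after 2 h of tetrodotoxin and DL-AP5, which silence firing and NMDA receptors. A second experiment held 3 inputs and 3 pulldowns of TurboID-PSD95 neurons given 100 µM of DHPG for 10 min, which activates metabotropic glutamate receptors of group I, after the same 2 h of silencing. The last experiment held 4 groups of 2 libraries, input and pulldown of TurboID-PSD95 neurons transfected with siRNA against the initiation factor eIF4G2 (20 nM, 72 h), at rest or with silencing and KCl. Neither of these experiments had an untreated input of its own here, so their inputs were set against those of the KCl experiment, and treatment and experiment cannot be told apart in those comparisons. The labels describe no silencing of resting cells, and if they had none, silencing and stimulus cannot be told apart either.

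Polyamines (putrescine, spermidine and spermine) are small cations that bind nucleic acids and are needed for translation, and cells hold them within narrow limits by controlling the translation of the enzymes that make them. Ornithine decarboxylase (Odc1) makes putrescine, S-adenosylmethionine decarboxylase (Amd1) makes the aminopropyl donor, spermidine synthase (Srm) and spermine synthase (Sms) add the aminopropyl groups, and the acetyltransferase Sat1 starts polyamine breakdown. Antizymes (Oaz1 and Oaz2) bind ornithine decarboxylase and send it to the proteasome, and their own full-length synthesis needs the ribosome to shift reading frame, which polyamines promote. Antizyme inhibitor (Azin1) is a relative of ornithine decarboxylase without its activity that takes antizyme away from the enzyme. Upstream open reading frames (uORFs), short frames ahead of the main start codon, are known to lower translation of the CDS of Amd1, Odc1 and Azin1, and that of Azin1 starts at a codon other than ATG.

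In the longest transcript of each gene, which was taken here from the deposited counts per transcript, the 5′ UTRs ranged from 104 nt (Oaz1) to 590 nt (Azin1). Upstream ATG codons were found in 5 of the 8 members, 12 in all, namely 4 in Sms, 3 in Azin1, 2 in Odc1, 2 in Sat1 and 1 in Amd1, and none was found in Srm, Oaz1 or Oaz2. Across 20810 5′ UTRs of the same annotation 55.2% held at least 1 upstream ATG, and 67.3% of those within the members' length range did, so having one was common. Some of these frames, those of Odc1 and Amd1 and 2 of Azin1, are given 5′ to 3′, and those of Sms and Sat1 are not shown. The upstream ATG, and the stop codon of its frame where it lies within the window, are in capitals. The frameshift sites of the antizymes are given with the stop codon of the first frame in capitals. Footprint counts are per stretch of a transcript, with no position within it, so they do not show which frame was read. The sequence is that of the genome build mm10 (RefSeq GRCm38.p6), the build of the deposited counts.
Odc1 first uORF, chr12:17544918-17544947, plus strand: tccATGacgacgtgctcggcgtataagTAG
Odc1 second uORF, chr12:17545126-17545155, plus strand: ggcgcctccATGggtcaggccagccgggcc
Amd1 uORF, chr10:40302155-40302184, minus strand: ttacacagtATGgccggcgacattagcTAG
Azin1 first upstream ATG, chr15:38518998-38519027, minus strand: ccgcagcctATGgcccaggccgccttgggt
Azin1 upstream ATG nearest the CDS, chr15:38501507-38501536, minus strand: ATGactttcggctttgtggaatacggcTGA
Oaz1 frameshift site, chr10:80828283-80828312, plus strand: cggtggtgctccTGAtgtccctcacccacc
Oaz2 frameshift site, chr9:65686260-65686289, plus strand: ctgtggtgctccTGAtgcccctcacccact
The Amd1 uORF held 6 codons before its stop and began at nt 12 of the transcript. The Odc1 uORFs held 8 and 10 codons. The windows around the antizyme frameshift sites were identical at 27 of 30 bases.

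The coding sequences lay at chr12:17547299-17550751 on the plus strand (Odc1), chr10:40289329-40301858 on the minus strand (Amd1), chr4:148591620-148594307 on the plus strand (Srm) and chrX:157446137-157491953 on the minus strand (Sms). Those of the regulators lay at chrX:155215217-155216168 on the minus strand (Sat1), chr10:80826760-80829004 on the plus strand (Oaz1), chr9:65676746-65689225 on the plus strand (Oaz2) and chr15:38490361-38501505 on the minus strand (Azin1). Several members have processed copies elsewhere in the genome, and how reads that align to several places were assigned is not given in the sources used here. The share of 28-nt windows of the CDS that occur once in the genome was 100% for Azin1, 79.5% for Srm, 79.3% for Sat1, 33.2% for Oaz2, 13.7% for Odc1, 5.01% for Oaz1, and 0% for Amd1 and Sms. Values of Odc1, Oaz1, Amd1 and Sms may therefore hold reads of near-identical copies, or lack their own, and their absolute levels are uncertain. For the 5′ UTR the share was 100% for Azin1 and Srm, 88.4% for Sms, 54.9% for Odc1, 41.0% for Oaz2, 38.3% for Sat1, 3.65% for Amd1 and 0% for Oaz1. Ratios and shares of 5′ UTR to CDS counts are thus uncertain too, also where the 2 regions differ in this share. The longest transcript of Sat1 had a CDS of 216 nt, and the transcript of that gene with the most counts had 516 nt.

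The libraries held 2048601 to 14646331 CDS counts each. The 5′ UTR took 15.5% to 27.6% of the 5′ UTR and CDS counts together in inputs and 4.7% to 18.7% in pulldowns. The second depolarized TurboID-PSD95 pulldown was taken, after the values were seen, as the library that stood apart. Its counts correlated at r = 0.963 with the inputs and 0.877 with its own group, and its 5′ UTR share was 18.7% against 5.31% and 10.2% in the rest of the group. The first library of that group also correlated at 0.878 with the group, but at 0.737 with the inputs. The third depolarized Pan-TurboID pulldown correlated at 0.948 with the inputs and 0.939 with its group. Comparisons of the depolarized TurboID-PSD95 pulldowns are also given without the second one. Markers of neurons summed to 6601 to 10880 CPM in the inputs, where CPM are counts scaled to 1000000 CDS counts of the library. Astrocyte markers summed to 80.7 to 771.9 CPM over the inputs, microglial markers to at most 20.1 CPM in any input, and 5 of 6 oligodendrocyte lineage markers (all but Mog) had counts. The latter summed to 211.8 to 494.3 CPM in resting and 131.2 to 214.5 CPM in depolarized TurboID-PSD95 inputs, and to 37.1 to 41.9 CPM in DHPG inputs. The part of these cells in the differences between conditions and experiments was not tested. Eif4g2 itself was at 546.5 to 634.9 CPM in resting inputs and 283.5 to 283.8 CPM in resting knockdown inputs, and the activity-induced gene Arc was at 5.72 to 17.2 CPM in resting and 103 to 177 CPM in depolarized inputs. Footprints from these bulk cultures cannot tell fewer expressing cells from fewer footprints per cell. The study states that resting and activated samples of a biological replicate were processed together. In the knockdown groups of 2, p-values rest on the spread between few libraries.

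Oaz1 had the highest CDS density of the 8 genes. Over all inputs, CDS density was 468.5 ± 121.5 RPKM (CPM per kilobase; mean ± SD, n = 19) for Oaz1, 111.7 ± 19.6 for Srm, 49.9 ± 15.7 for Oaz2, 46.0 ± 16.1 for Azin1, 24.1 ± 13.5 for Odc1, 20.2 ± 4.3 for Sms, 15.2 ± 8.5 for Sat1 and 14.2 ± 5.2 for Amd1. The Sat1 value is that of a CDS of 216 nt, and with the transcript of 516 nt it was 7.89 ± 3.80, below that of Amd1. In this order of CDS densities, Oaz1 and Srm stood apart from their neighbors, whereas Oaz2 and Azin1 did not differ beyond their SD, and neither did Odc1, Sms, Sat1 and Amd1. In the 5′ UTR, density was highest for Oaz1 (1044 ± 431 RPKM) and Azin1 (407 ± 102 RPKM), and Odc1 had 109 ± 39 RPKM. Of the 5′ UTR windows, 0% occur once in the genome for Oaz1 and 100% for Azin1, so the level of Oaz1 is uncertain. Relative to the CDS of the same gene, the order depended on the condition. In resting inputs of the KCl experiment, the 5′ UTR density of Azin1 was 12.6 times that of its CDS, at the 97.9 percentile of 12164 genes whose median was 2.00, and Sms (4.48) and Odc1 (3.84) followed. In depolarized inputs Odc1 had 10.2, Azin1 9.32 and Sms 5.50, with a median of 2.47 over all genes. Over all inputs Azin1 had 9.33, Odc1 4.20 and Sms 3.95. There Oaz2 (2.25), Oaz1 (2.17), Amd1 (1.64) and Srm (1.17), the last with a short 5′ UTR and no upstream ATG, lay near or under the median gene (1.99). Sat1 had 1.92 with the longest transcript and 3.58 with that of 516 nt. These ratios rest on counts pooled over libraries and describe them, with no test. They also depend on how reads of repeated sequence were assigned. For Sms 88.4% of the 5′ UTR windows but 0% of the CDS windows occur once in the genome, and for Odc1 54.9% and 13.7%.

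As a share of the 5′ UTR and CDS counts of a gene together, the median over the inputs was 80.8% for Azin1, 73.7% for Sat1, 59.8% for Odc1, 56.8% for Sms, 44.7% for Oaz2, 31.7% for Amd1, 25.1% for Oaz1 and 13.2% for Srm. In pulldowns the medians were 62.4%, 65.0%, 24.0%, 33.9%, 45.9%, 21.6%, 16.1% and 5.58% in the same order. The share was thus lower in pulldowns for 7 of the 8 genes, with the lowest ratio of pulldown to input for Odc1 and Srm. A lower share in pulldowns was general. With counts pooled over libraries, the median share over 12164 genes was 22.0% in inputs and 9.79% in pulldowns. Sat1 had 0 to 56 CDS counts in a library, so that its single-library shares carry wide counting intervals. Intervals given here are Wilson 95% intervals and cover counting error only.

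**Figure D1:**
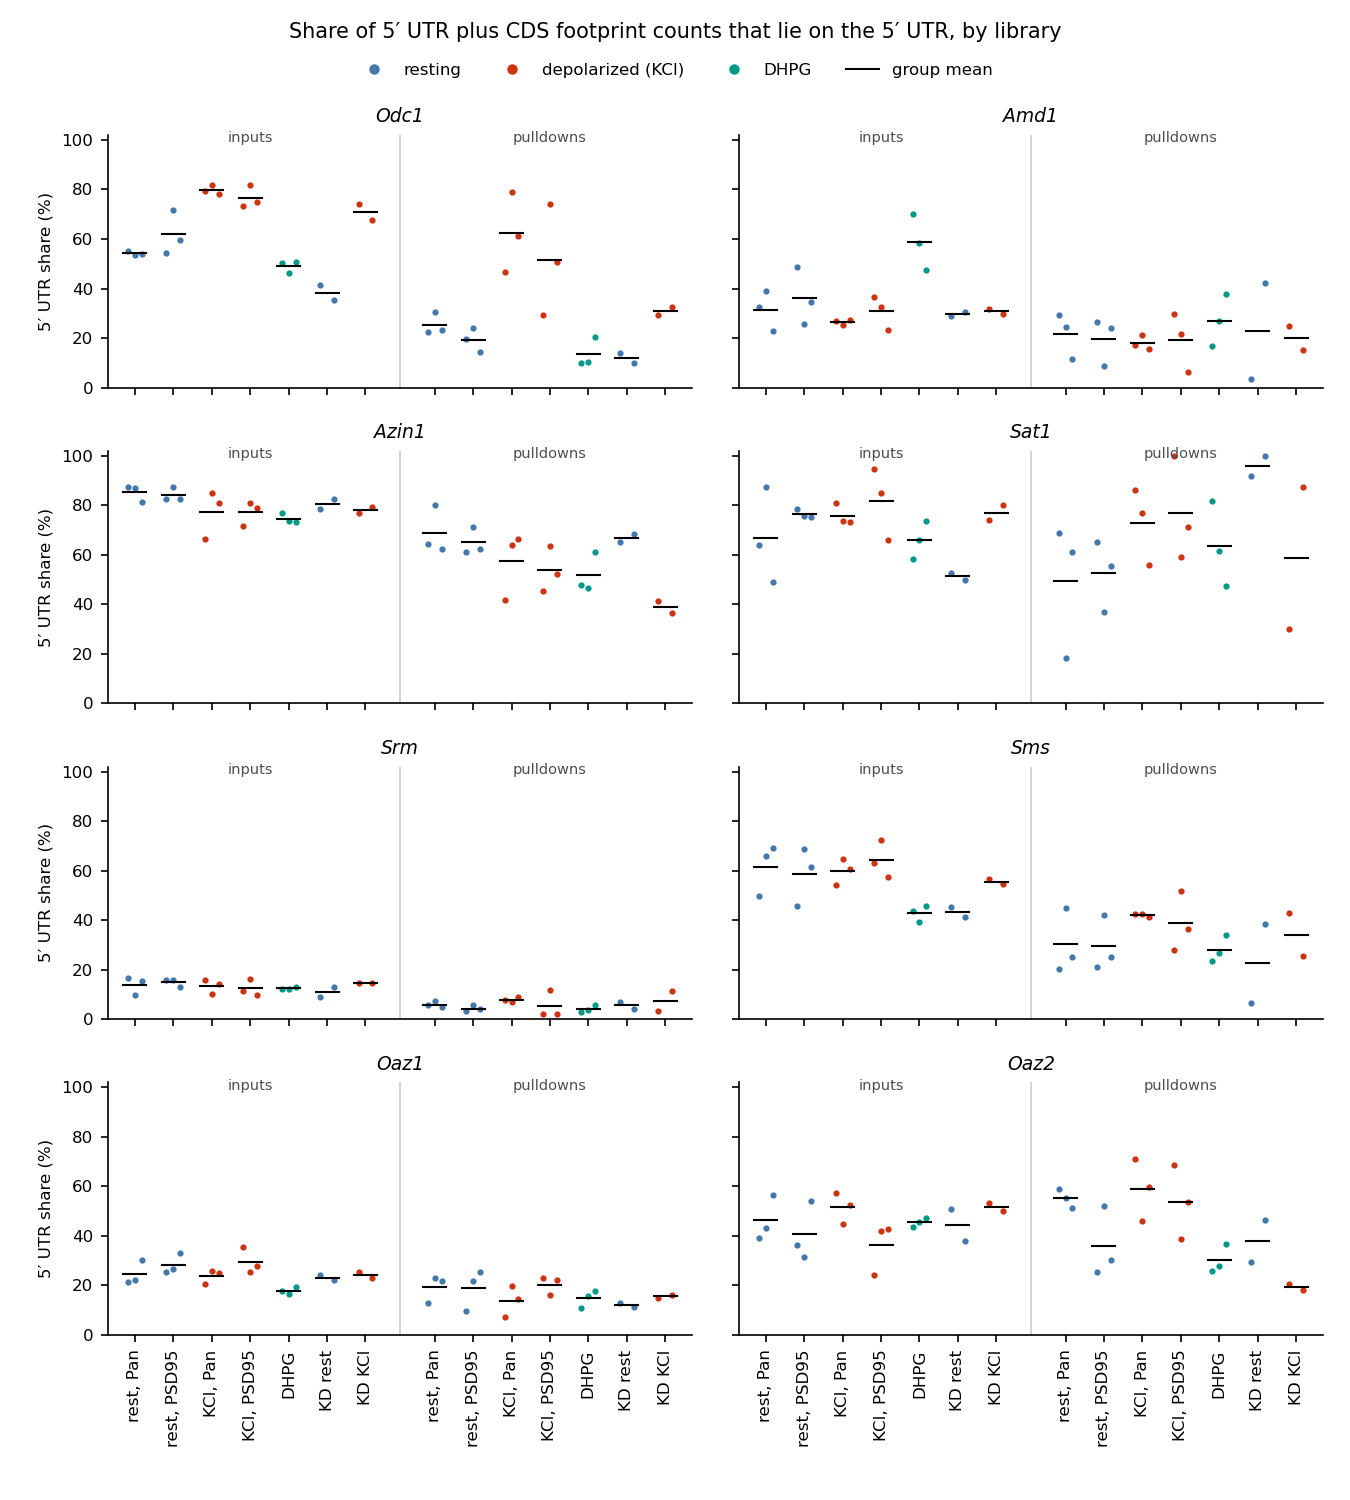
Share of each gene's 5′ UTR and CDS counts that lay in the 5′ UTR (percent), 1 point per library, for the 14 groups along the x axis, with the group mean as a line; KD marks the eIF4G2 knockdown. Odc1 shares lay at 53.6% to 71.8% in the resting inputs of the KCl experiment and at 73.4% to 81.8% in the depolarized inputs.

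KCl raised Azin1 and lowered Odc1 in the CDS of the inputs, and no other member passed the test there. Azin1 CDS counts were 25.9, 35.6 and 44.4 CPM in resting Pan-TurboID inputs and 36.4, 30.4 and 45.0 CPM in resting TurboID-PSD95 inputs. With KCl they were 86.8, 56.7 and 70.4 CPM and 80.1, 79.0 and 81.4 CPM. Every depolarized input lay above every resting one, and the rise was 2.14-fold (log2 1.10 ± 0.18 SE, edgeR adjusted p = 8.6e-05). Odc1 CDS counts were 27.2, 28.6 and 35.7 CPM and 28.8, 19.9 and 30.4 CPM at rest, and 9.96, 15.4 and 21.8 CPM and 17.9, 12.7 and 25.4 CPM with KCl. The groups overlapped in single libraries, and the fall was 1.59-fold (log2 −0.67 ± 0.21 SE, edgeR adjusted p = 0.031). That call was lost when replicate 1, 2 or 3 of every group was left out (edgeR adjusted p = 0.126, 0.157 and 0.0887). CDS footprints of Odc1 and Azin1 thus moved in opposite directions in the same libraries, with the Odc1 fall the less stable call. Protein and mRNA levels were not compared here, so footprints per mRNA are not known. The study reports fewer ribosomes on coding sequences with KCl, a general change that counts scaled to CDS totals do not show. The other members ranged from −0.17 (Sat1) to 0.34 (Amd1, which was not called). Of all 13019 genes tested 15.3% were called, against 2 of 8 here, and the median log2 change was 0.19 over the members. The fit takes the inputs of both constructs as independent libraries. Same-numbered inputs of a condition correlated in their deviations (r = 0.28 to 0.64), so these edgeR p-values may be too small.

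**Figure D2:**
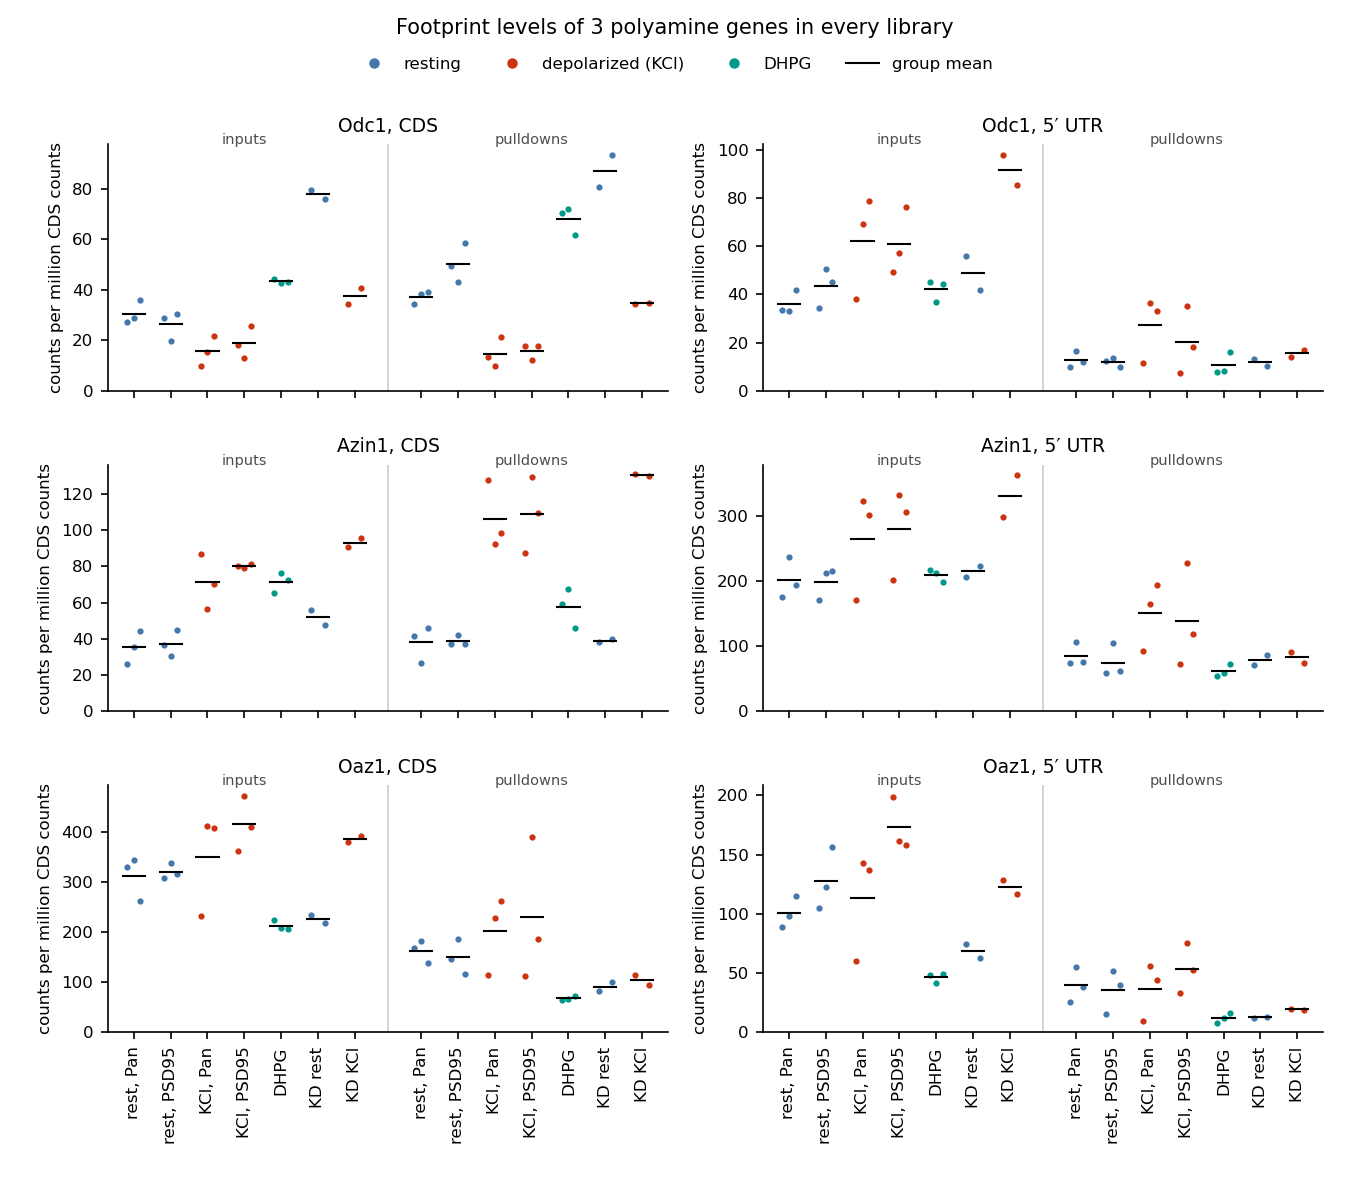
CDS counts (left) and 5′ UTR counts (right) of Odc1, Azin1 and Oaz1 in CPM, 1 point per library, by group, with the group mean as a line; KD marks the eIF4G2 knockdown. Azin1 CDS counts lay at 25.9 to 45.0 CPM in the resting inputs and at 56.7 to 86.8 CPM in the depolarized inputs of the KCl experiment, while Odc1 CDS counts lay at 19.9 to 35.7 CPM and 9.96 to 25.4 CPM.

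Relative to the CDS, 5′ UTR counts were higher with KCl for Odc1 in the exact permutation test over libraries, but not in the fit over all genes. For 5′ UTR counts alone, no member was called with KCl in the inputs by edgeR (quasi-likelihood or likelihood ratio test) or DESeq2, none had an unadjusted p under 0.05, and the background was 0.442% of genes called. The median log2 change of 5′ UTR counts over all genes was 0.17, and that relative to CDS 0.21. Odc1 5′ UTR counts were 33.0 to 50.6 CPM at rest and 37.95 to 78.9 CPM with KCl (log2 0.66 ± 0.35 SE), and those of Azin1 were 171 to 237 CPM and 171 to 332 CPM (log2 0.46 ± 0.33 SE). The 5′ UTR share of Odc1 rose from 55.3%, 53.6%, 54.0%, 54.3%, 71.8% and 59.8% in the 6 resting inputs to 79.2%, 81.8%, 78.3%, 73.4%, 81.8% and 75.0% in the 6 depolarized ones. No depolarized input lay at or under a resting one, although the highest resting library (71.8%, interval 67.0% to 76.2%) and the lowest depolarized one (73.4%, interval 66.0% to 79.7%) were within each other's counting interval. An exact two-sided permutation test on the log2 ratio of 5′ UTR to CDS counts (pseudocount 0.5) gave a difference of 1.37 for Odc1 with p = 0.002165, the smallest that 6 against 6 libraries can give. The same exact permutation test gave a difference of −0.67 for Azin1 (p = 0.02814), with 5 of 6 depolarized inputs below all resting ones, and p-values of 0.28 to 0.98 for the other 6 of the 8 genes tested. This test takes the inputs of both constructs as independent libraries. Same-numbered inputs of a condition correlated in their deviations from their groups (r = 0.28 to 0.64), so these p-values may be too small. They are not adjusted over the 8 genes. In the fit over all genes, which models 5′ UTR relative to CDS, neither was called: Odc1 had 1.38 ± 0.42 SE (edgeR adjusted p = 0.20) and Azin1 −0.66 ± 0.36 SE (edgeR adjusted p = 0.69), 1 member had an unadjusted p under 0.05, limma on log ratios called none, and the background was 0.358% called. With the replicate number as a block the Odc1 value was 1.36 and its edgeR adjusted p = 0.0347.

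Along the Odc1 transcript, the fall with KCl lay in the later CDS. The first 276 nt of the Odc1 CDS held 7.21 ± 3.88 CPM in resting and 10.95 ± 5.02 CPM in depolarized inputs (SD, n = 6), and the rest of the CDS held 21.2 ± 3.25 CPM (15.5 to 24.7) and 6.26 ± 3.57 CPM (0.850 to 9.80). The beginning of the CDS therefore overlapped between the conditions, whereas the remainder did not overlap in any library. The piece at nt 1731 to 1875 of the transcript, the last of the CDS, held 252 counts over the 6 resting inputs and 31 over the 6 depolarized ones. The density of the later CDS relative to its first 276 nt went from 0.804 to 0.141 for Odc1, that is, from the 59.6 to the 7.39 percentile of 10077 genes, whose median went from 0.667 to 0.439. Each gene was divided at its first border between CDS pieces at or after 201 nt. For Azin1 the same ratio went from 1.15 to 1.50 (76.3 to 90.9 percentile), with 29.5 ± 6.90 CPM (21.1 to 37.7) and 65.1 ± 9.20 CPM (50.1 to 76.4) in the later CDS. Odc1 was not alone in this fall, since the ratio, with the CDS divided at 264 to 353 nt, also went from 0.628 to 0.247 for Sms, from 0.188 to 0.109 for Srm and from 0.162 to 0.0498 for Oaz2. For Amd1 it was 0.323 and 0.310. This division was chosen after the values were seen and carries no test. None of the 28-nt windows of the last Odc1 piece occurs only once in the genome, and the part that reads of other copies play there was not tested.

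The 5′ UTR counts were uneven along the 5′ UTR. In Odc1, nt 179 to 375, which contain the second uORF and make up 40.3% of the 5′ UTR, held 4491 of 5805 5′ UTR counts of the inputs (77.4%), and the first 178 nt, which contain the first uORF, held 163 (2.81%) on 36.4% of the length. Of the 28-nt windows of the first stretch 19.4% occur once in the genome, against 100% of those of the first 178 nt. The part from nt 376 to 473 rose in mean from 4.20 to 11.97 CPM between resting and depolarized inputs, a description with no test. In Azin1, nt 98 to 358 held 65.5% and nt 17 to 97 held 27.0% of the 5′ UTR counts on 44.2% and 13.7% of its length, and all of its windows occur once in the genome. The 3 upstream ATGs of Azin1 begin at nt 249, 463 and 560. A reading frame without a stop codon ran over nt 1 to 369 of the Azin1 5′ UTR, which was also true of a frame over that stretch in 17.8% of 4221 5′ UTRs of that length or more. The stretch of Amd1 that contains its uORF, nt 1 to 129, held 58.1% of its 5′ UTR counts on 39.3% of the length. In Oaz1 and Oaz2, which have no upstream ATG, the last stretch before the CDS held 99.3% and 98.4% of the counts and made up 64.4% and 78.3% of the 5′ UTR. Since the deposited counts take the first base of each read without a shift, ribosomes at the start codon itself add to the end of the 5′ UTR.

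**Figure D3:**
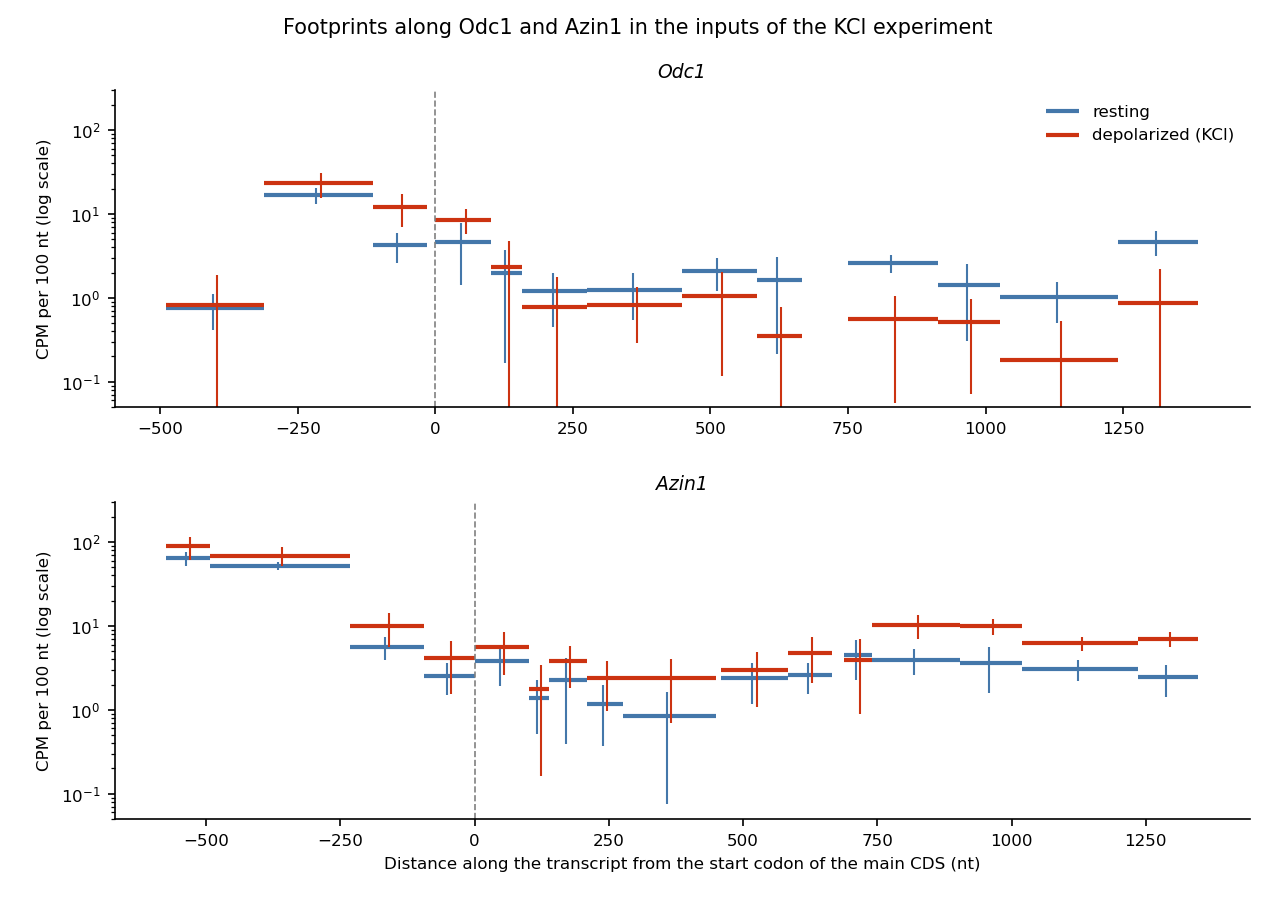
Footprint density (CPM per 100 nt, log axis) over the pieces of the Odc1 and Azin1 transcripts against distance from the main start codon (nt), as the mean over 6 resting and 6 depolarized inputs (horizontal bars) with the SD as vertical lines; pieces under 30 nt are left out, and 1 Odc1 piece had no counts. In Odc1 the later CDS went from 21.2 to 6.26 CPM in all, while in Azin1 it went from 29.5 to 65.1 CPM.

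In TurboID-PSD95 pulldowns, KCl changed the CDS counts of 3 members, Odc1, Amd1 and Azin1. Odc1 was at 49.2, 43.0 and 58.6 CPM in resting and 17.5, 12.3 and 17.6 CPM in depolarized pulldowns, a 3.15-fold fall (log2 −1.66 ± 0.31 SE, edgeR adjusted p = 0.0014). Azin1 was at 36.9, 42.0 and 37.1 CPM and 87.5, 129 and 109 CPM, a 2.85-fold rise (log2 1.51 ± 0.25 SE, edgeR adjusted p = 0.00048). Amd1, the decarboxylase that feeds both synthases, was at 7.69, 13.4 and 9.28 CPM and 31.1, 24.3 and 18.5 CPM, a 2.44-fold rise (log2 1.29 ± 0.33 SE, edgeR adjusted p = 0.017). None of these 3 overlapped between the groups, but the share of all genes without overlap is not given. The share called among all genes was 6.59%. Without the depolarized pulldown that stood apart, all 3 were still called (Odc1 −1.46 ± 0.35, Amd1 1.32 ± 0.37 and Azin1 1.39 ± 0.27 SE; edgeR adjusted p = 0.014, 0.038 and 0.003). With replicate 2 or 3 of every group left out Odc1 had an edgeR adjusted p of 0.0511 and 0.0582, Azin1 had 0.0557 without replicate 3, and Amd1 had 0.134, 0.110 and 0.156 without replicate 1, 2 or 3. Pan-TurboID pulldowns showed the same order, with Odc1 at 34.1, 38.1 and 38.9 CPM at rest and 13.2, 9.62 and 21.1 CPM with KCl, and Azin1 at 41.5, 26.4 and 46.1 CPM and 128, 92.5 and 98.5 CPM; these were not tested on their own.

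No member was called for 5′ UTR counts of the TurboID-PSD95 pulldowns with KCl (log2 0.26 to 1.61, and −1.54 for Srm to 1.66 for Amd1 without the library that stood apart; 0.275% of all genes called; 1 member at an unadjusted p under 0.05; none by the likelihood ratio test or DESeq2), nor for 5′ UTR relative to CDS (0.0497% of all genes called; 1 member at an unadjusted p under 0.05; none by limma on log ratios). The median over all genes was log2 0.65 for 5′ UTR and 0.58 for relative counts (−0.035 and −0.0029 without the library that stood apart). The Odc1 5′ UTR share was 19.8%, 24.0% and 14.3% at rest and 29.4%, 74.2% and 50.9% with KCl, the 74.2% coming from the library that stood apart. The relative change of Odc1 was log2 2.27 ± 0.64 (edgeR adjusted p = 0.21) with that library and 1.52 without it. It was called when the replicate number was a block (2.27, edgeR adjusted p = 0.0327) and without replicate 1 of every group (2.91, edgeR adjusted p = 0.0349). Whether the KCl response differed between pulldown and input was tested directly, and no member was called for CDS, 5′ UTR or relative counts, nor was any gene (0%, 0% and 0% called by edgeR). Odc1 (log2 −0.98 ± 0.37) and Amd1 (0.95 ± 0.39) had unadjusted edgeR p-values of 0.013 and 0.023 for CDS counts, which were 0.058 (log2 −0.79) and 0.030 (0.99) without the library that stood apart. The likelihood ratio test and DESeq2 called none, and no member was under 0.05 for the other readouts.

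The opposite movement of Odc1 and Azin1 with KCl was also measured in the eIF4G2 knockdown. Odc1 CDS counts were 79.5 and 76.1 CPM in resting and 34.5 and 40.5 CPM in depolarized knockdown inputs (log2 −1.05 ± 0.18 SE, edgeR adjusted p = 0.00015). Azin1 was at 56.1 and 47.7 CPM and 90.9 and 95.4 CPM (log2 0.86 ± 0.16 SE, edgeR adjusted p = 0.00027), and Oaz1 at 234 and 219 CPM and 380 and 392 CPM (log2 0.78 ± 0.11 SE, edgeR adjusted p = 1.4e-05). No library overlapped between the conditions for any of the 3, which says little with 2 libraries in each group. The share of all genes without overlap is not given. By the test, 19.3% of 12239 genes were called. These libraries share none with the KCl experiment without knockdown. Arc was at 10.97 to 13.6 CPM in resting and 40.15 to 47.1 CPM in depolarized knockdown inputs. In TurboID-PSD95 inputs without knockdown Arc was at 11.45 to 17.15 CPM and 109.9 to 176.5 CPM. The activity-induced gene thus reached a lower level with KCl in the knockdown experiment, and the part of this in the comparison of KCl responses was not tested. Astrocyte markers summed to 488.8 to 504.2 CPM in resting and 651.9 to 671.7 CPM in depolarized knockdown inputs, and neuron markers to 8727 to 8833 and 6826 to 7015 CPM. The part of cell composition in these differences was not tested. In the 5′ UTR, Odc1 went from 55.8 and 41.9 CPM to 97.9 and 85.4 CPM (log2 0.93 ± 0.24 SE, edgeR adjusted p = 0.04) and Oaz1 also rose (log2 0.85 ± 0.21 SE, edgeR adjusted p = 0.031), where 3.41% of all genes were called. Most genes shifted the same way, with a median log2 of 0.50 over all genes. Azin1 was not called there by the main test, but was by edgeR's likelihood ratio test (log2 0.63, adjusted p = 0.0256), by DESeq2 (0.68, adjusted p = 0.0073) and with the replicate block (0.63, edgeR adjusted p = 0.0458). Odc1 was the only member called higher in 5′ UTR and lower in CDS counts. The 5′ UTR log2 change was at least 0.22 in all 8 members, and Sms CDS counts were also lower with KCl, without a call. The Odc1 share went from 41.3% and 35.5% to 74.0% and 67.8%. Its 5′ UTR relative to CDS rose by log2 1.98 ± 0.39 SE (edgeR adjusted p = 0.023; 2.37% of all genes called, with a median of 0.54 over all genes), a call that limma on log ratios did not give (adjusted p = 0.41). No member, and no more than 0.00758% of all genes, had a CDS response to KCl that was called as different with and without knockdown, and for 5′ UTR and relative counts 0% and 0% of genes were called; no member had an unadjusted p under 0.05 in any of the 3 readouts, and the likelihood ratio test, DESeq2 and limma on log ratios called none.

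**Figure D4:**
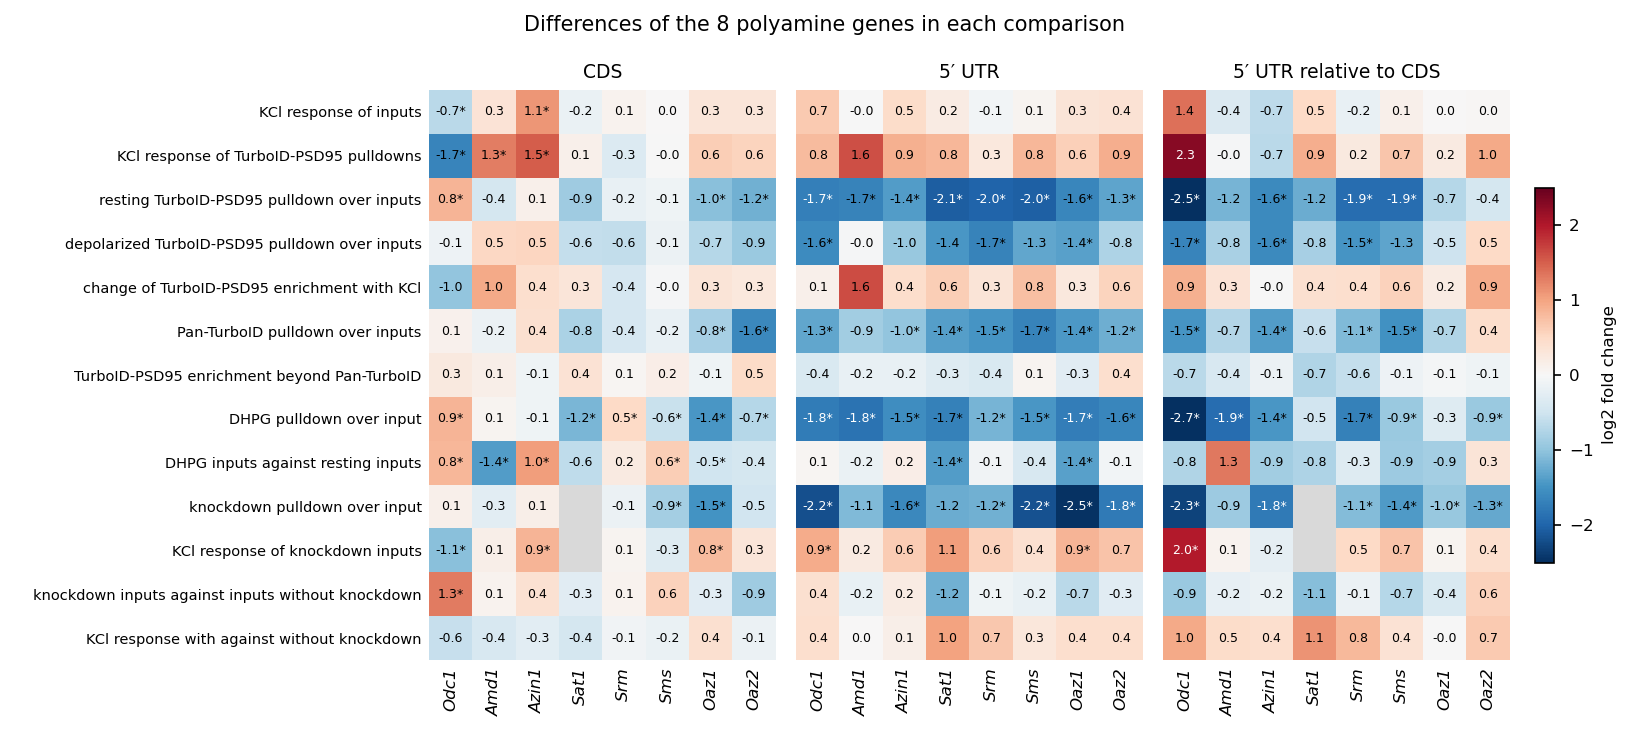
Log2 fold changes of CDS counts, of 5′ UTR counts and of 5′ UTR relative to CDS for the 8 members (columns) in the 13 comparisons (rows), with an asterisk where the edgeR adjusted p was under 0.05 and gray where the gene was not tested. Odc1 CDS was lower with KCl in inputs (−0.67), TurboID-PSD95 pulldowns (−1.66) and knockdown inputs (−1.05), where Azin1 CDS was higher (1.10, 1.51 and 0.86).

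Knockdown inputs had more Odc1 CDS counts than inputs without knockdown. They stood at 79.5 and 76.1 CPM against 28.8, 19.9 and 30.4 CPM in resting TurboID-PSD95 inputs, and at 34.5 and 40.5 CPM against 17.9, 12.7 and 25.4 CPM with KCl. There was no overlap in either condition, and the fitted difference between knockdown and other TurboID-PSD95 inputs, averaged over rest and KCl, was 2.46-fold (log2 1.30 ± 0.19 SE, edgeR adjusted p = 6.8e-05). The quasi-likelihood test called no other member, with 15.9% of 13197 genes called. Oaz2 was called lower by the likelihood ratio test (log2 −0.88, adjusted p = 0.0418), by DESeq2 (−0.90, adjusted p = 0.0412) and with no low-count filter (−0.87, edgeR adjusted p = 0.0135), and Azin1 higher by DESeq2 (0.37, adjusted p = 0.0486). No member was called for 5′ UTR counts (2.23% of genes; 1 member at an unadjusted p under 0.05, none by the likelihood ratio test or DESeq2) or for 5′ UTR relative to CDS (0.0198% of genes; 1 member at an unadjusted p under 0.05, none by limma on log ratios). Oligodendrocyte lineage markers summed to 144.4 to 149.1 CPM in resting knockdown inputs against 211.8 to 494.3 CPM in resting TurboID-PSD95 inputs, and their part in these differences was not tested. Knockdown and experiment cannot be told apart in these values.

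Between pulldown and input, CDS counts of the antizymes were lower in resting TurboID-PSD95 and in Pan-TurboID pulldowns. Those of Odc1 were higher in resting TurboID-PSD95 pulldowns, and resting Pan-TurboID pulldowns had the same direction. TurboID-PSD95 pulldowns of the KCl experiment were compared with the inputs of both constructs, separately at rest and with KCl. Pan-TurboID pulldowns were compared with Pan-TurboID inputs, averaged over rest and KCl. In resting TurboID-PSD95 pulldowns Odc1 was at 49.2, 43.0 and 58.6 CPM against 28.8, 19.9 and 30.4 CPM in TurboID-PSD95 inputs and 27.2, 28.6 and 35.7 CPM in the Pan-TurboID inputs, with no overlap (1.8-fold, log2 0.85 ± 0.25 SE, edgeR adjusted p = 0.012). Oaz1 was at 146, 187 and 115 CPM in these pulldowns and 262 to 344 CPM in resting inputs (2.07-fold lower, log2 −1.05 ± 0.28 SE, edgeR adjusted p = 0.0068). Oaz2 was at 9.37, 15.4 and 14.6 CPM and 20.5 to 40.6 CPM (2.29-fold lower, log2 −1.19 ± 0.40 SE, edgeR adjusted p = 0.027). The antizyme pulldowns thus lay under all resting inputs, and 31.1% of all genes were called in this comparison. For Oaz1 the difference lay before its frameshift site, with 297.8 ± 29.6 CPM in resting inputs and 138.3 ± 31.0 CPM in resting pulldowns of both constructs. After the site Oaz1 held 18.9 ± 3.3 and 17.55 ± 4.8 CPM. Over all genes the median density of the later CDS relative to its beginning was 0.667 in resting inputs and 1.572 in resting pulldowns. The Oaz2 call was lost when the trend of pulldown enrichment with CDS length was removed (log2 −0.55, edgeR adjusted p = 0.24), with TurboID-PSD95 inputs alone (−1.17, edgeR adjusted p = 0.0548) and without replicate 2 (0.106), and all 3 were lost without replicate 3 of every group (edgeR adjusted p = 0.109, 0.139 and 0.138 for Odc1, Oaz1 and Oaz2).

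Averaged over rest and KCl, the Pan-TurboID pulldown had lower CDS counts of Oaz1 (log2 −0.83 ± 0.22 SE, edgeR adjusted p = 0.0052) and Oaz2 (6.06, 13.9 and 11.9 CPM at rest; 3.04-fold lower, log2 −1.60 ± 0.32 SE, edgeR adjusted p = 0.00081) than Pan-TurboID inputs, and no member was higher (34.2% of genes called). Oaz1 lost its call without replicate 3 (edgeR adjusted p = 0.0668) and with the CDS-length trend removed (0.0553). Whether the TurboID-PSD95 pulldown was enriched beyond Pan-TurboID was tested directly, on the average of rest and KCl. No member was called for CDS (log2 −0.11 to 0.48; 0.00768% of genes called), 5′ UTR (0%) or relative counts (0%), none had an unadjusted p under 0.05 and no other tool called one. At rest Odc1 was at 34.1, 38.1 and 38.9 CPM in Pan-TurboID pulldowns and 27.2, 28.6 and 35.7 CPM in Pan-TurboID inputs. It was thus higher in each same-numbered pulldown, with overlap between the groups. Since the test beyond Pan-TurboID averages the conditions, whether the Odc1 enrichment at rest differed between the constructs was not tested. Without the library that stood apart Srm had unadjusted edgeR p-values of 0.038 for 5′ UTR (log2 −1.27) and 0.026 for relative counts (−1.21), and no member was called. The Pan-TurboID pulldown also had lower CDS counts of Srm with the replicate block (log2 −0.40, edgeR adjusted p = 0.0165) and without replicate 1 (−0.48, edgeR adjusted p = 0.0424).

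With KCl, no member was called for CDS counts between the TurboID-PSD95 pulldown and the inputs of both constructs (18% of genes called), although 4 had an unadjusted p under 0.05, the likelihood ratio test called 2 and DESeq2 called 4. Oaz1 was at 112, 390 and 187 CPM and Oaz2 at 4.86, 35.1 and 14.6 CPM in these pulldowns, the middle value of each being the library that stood apart. Without it Oaz1 (log2 −1.30), Oaz2 (−1.81) and Srm (−0.75) were called lower (edgeR adjusted p = 0.000675, 0.00248 and 0.0249), where 33.2% of genes were called. With the replicate number as a block and that library kept, Oaz1 (−0.80), Oaz2 (−1.10) and Srm (−0.59) were called lower and Azin1 (0.55) higher (edgeR adjusted p = 0.00823, 0.0183, 0.0102 and 0.0435). Without replicate 1 of every group Srm (−0.74) and Azin1 (0.78) were called (edgeR adjusted p = 0.0401 and 0.0297).

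The 5′ UTR counts of the members were lower in pulldowns, as were those of most genes. At rest all 8 were lower in the TurboID-PSD95 pulldown (log2 −1.32 for Oaz2 to −2.06 for Sat1), with 61.5% of genes called and a median of −1.59 over all genes against −1.68 over the members. Oaz2 lost its call with TurboID-PSD95 inputs alone (edgeR adjusted p = 0.0749), and Amd1 and Sat1 theirs without replicate 2 (0.181 and 0.0627). With KCl 3 were called lower (Odc1 −1.57, Srm −1.67 and Oaz1 −1.36; 12.7% of genes). On the same libraries DESeq2 also called Azin1, Sat1 and Sms lower (adjusted p = 0.0163, 0.0131 and 0.0123), and the likelihood ratio test Sat1 and Sms (adjusted p = 0.0352 and 0.0311). All 3 calls were lost with TurboID-PSD95 inputs alone (edgeR adjusted p = 0.0606, 0.0629 and 0.0606). Srm lost it also with no low-count filter (0.0554), and Srm and Oaz1 without replicate 1 (0.0729 and 0.0517). Without the library that stood apart 6 were called lower (Odc1 −2.20, Azin1 −1.46, Sat1 −1.67, Srm −3.48, Sms −2.01 and Oaz1 −1.65; 55.7% of genes). With the replicate block, Azin1, Sat1 and Sms were called with KCl as well (edgeR adjusted p = 0.00295, 0.0241 and 0.00167). In the Pan-TurboID pulldown 7 of 8 were lower, all but Amd1 (−0.87), with 74.2% of genes called; with the replicate block Amd1 was called too (−0.96, edgeR adjusted p = 0.0475), and Sat1 lost its call without replicate 2 (0.132). Relative to their own CDS, the same 4 members were lower in the resting TurboID-PSD95 pulldown (Odc1 −2.55 ± 0.53, Srm −1.91, Sms −1.90 and Azin1 −1.58; 48.7% of genes called) and in the Pan-TurboID pulldown (Odc1 −1.48, Srm −1.10, Sms −1.51 and Azin1 −1.39; 57.8% of genes). In the depolarized TurboID-PSD95 pulldown these were Odc1 (−1.66), Azin1 (−1.60) and Srm (−1.48; 25.8% of genes), with Sms (−1.76) added without the library that stood apart, when 44.4% of genes were called and the others had −2.40, −1.90 and −2.68. With that library kept, Odc1 and Srm lost these relative calls with TurboID-PSD95 inputs alone (edgeR adjusted p = 0.0729 and 0.0782) and without replicate 1 (0.151 and 0.238), and Srm also with no low-count filter (0.0825). In the Pan-TurboID pulldown Srm lost its relative call without replicate 1 (edgeR adjusted p = 0.0658). Limma on log ratios also called Sms with KCl (−1.38, adjusted p = 0.0354), and the replicate block added Sms with KCl (−1.36, edgeR adjusted p = 0.0183) and Oaz1 in the Pan-TurboID pulldown (−0.74, edgeR adjusted p = 0.0245). With replicate 3 of every group left out, none of the 8 5′ UTR calls at rest (edgeR adjusted p = 0.181 to 0.315), the 3 with KCl (0.527) and the 7 of the Pan-TurboID pulldown (0.0676 to 0.133) was made. The same held for the relative counts, with edgeR adjusted p-values of 0.114 to 0.207 at rest, 0.348 to 0.420 with KCl and 0.0853 to 0.216 in the Pan-TurboID pulldown.

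In the DHPG experiment, 5 members differed in CDS counts between DHPG inputs and the resting TurboID-PSD95 inputs of the KCl experiment. Astrocyte markers summed to 80.7 to 85.3 CPM in the former and 286.6 to 725.1 CPM in the latter, and the part of these cells in the differences was not tested. Azin1 (65.2, 76.3 and 72.3 CPM in DHPG inputs; 2.07-fold, log2 1.05 ± 0.17 SE, edgeR adjusted p = 0.00018) and Odc1 (44.4, 42.7 and 43.0 CPM; log2 0.82 ± 0.16 SE, edgeR adjusted p = 0.00084) were both higher, and so was Sms (log2 0.61 ± 0.18 SE, edgeR adjusted p = 0.016). For Azin1 and Odc1 each DHPG input lay above each resting input of the KCl experiment. Amd1, at 3.25, 4.34 and 6.8 CPM against 11.6, 13.7 and 15.3 CPM in resting TurboID-PSD95 inputs, was 2.63-fold lower without overlap (log2 −1.40 ± 0.33 SE, edgeR adjusted p = 0.0042), and Oaz1, at 224, 208 and 206 CPM, was lower as well (log2 −0.49 ± 0.14 SE, edgeR adjusted p = 0.014). Among all genes 32.8% were called, and the 5′ UTR and relative counts had 10.4% and 6.51% called. In the 5′ UTR Sat1 (log2 −1.39, edgeR adjusted p = 0.029) and Oaz1 (−1.36, edgeR adjusted p = 0.016) were lower. Sat1 lost that call without replicate 1, 2 or 3 (edgeR adjusted p = 0.0888, 0.0882 and 0.220), and Oaz1 without replicate 2 or 3 (0.0718 and 0.307). No member was called for relative counts, where 4 had an unadjusted p under 0.05 and limma on log ratios called none. The Amd1 share was 70.2% (interval 59.8% to 79.0%), 58.2% and 47.5% in the DHPG inputs, the last of which lay within the 22.9% to 48.6% of the 6 resting inputs of the KCl experiment. Amd1 lost its call without replicate 2 (edgeR adjusted p = 0.0511), and Sms without replicate 1 or 2 (0.0838 and 0.107). Oaz1 lost its call without replicate 2 or 3 (edgeR adjusted p = 0.0565 and 0.0563).

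Within the DHPG experiment, 6 members differed in CDS counts between pulldown and input, where 79.8% of 12273 genes were called. Oaz1 fell most, at 63.7, 66.0 and 72.4 CPM in pulldowns against 224, 208 and 206 CPM in inputs (2.73-fold lower, log2 −1.45 ± 0.07 SE, edgeR adjusted p = 3.3e-12). Odc1, at 70.3, 71.8 and 61.7 CPM against 44.4, 42.7 and 43.0 CPM, was higher (log2 0.85 ± 0.09 SE), as was Srm (0.50 ± 0.07). Sat1 (−1.15 ± 0.47), Oaz2 (−0.71 ± 0.13) and Sms (−0.55 ± 0.12) were lower. With the CDS-length trend removed the values of Sat1 and Oaz2 turned to 0.48 and 0.25 and were not called, and Sat1 was not called by DESeq2 (adjusted p = 0.055) or without replicate 1 or 2 (edgeR adjusted p = 0.243 and 0.188) either. All 8 members were lower in 5′ UTR counts (−1.16 to −1.84; 95.2% of genes called) and 6 were lower relative to CDS, all but Sat1 and Oaz1 (69.9% of genes), of which Oaz2 lost its call without replicate 2 (edgeR adjusted p = 0.0575).

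In the eIF4G2 knockdown, pulldown and input, averaged over rest and KCl, were compared for the 7 members with enough CDS counts, all but Sat1. Oaz1 (log2 −1.50 ± 0.09 SE) and Sms (−0.85 ± 0.23 SE) were lower in CDS counts, where 59.7% of 12239 genes were called. For 5′ UTR counts the quasi-likelihood test called 6 of 8 lower, all but Amd1 and Sat1 (81.4% of genes called), which the likelihood ratio test called as well (adjusted p = 0.0381 and 0.0228). Relative to CDS 6 of 7 were lower, all but Amd1 (65.7% of genes), but Sms lost that call with the replicate block (edgeR adjusted p = 0.054). Srm and Sms lost it with limma on log ratios (adjusted p = 0.0718 and 0.0902) and Oaz2 with no low-count filter (edgeR adjusted p = 0.0593). Odc1 CDS counts were 80.8 and 93.5 CPM in resting and 34.3 and 34.8 CPM in depolarized knockdown pulldowns, and Azin1 counts were 38.2 and 39.7 CPM and 131 and 130 CPM. The order of the conditions was thus the one measured in the inputs, with no test between these pulldowns.

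The frameshift that full-length antizyme needs divides the CDS of Oaz1 and Oaz2 into a part before and a part after the site shown above. In Oaz1 the density after the site was 2.10% of that before it over all inputs (1687 counts after and 33698 before). This was at the 0.179 percentile of 10077 genes, whose median ratio was 0.615. Each of those genes was divided at its first border between CDS pieces at or after the distance of the site from the start codon, so most leading parts may be longer. In pulldowns it was 5.42% (2053 and 15875 counts), where the median ratio over all genes was 1.471. The ratio in single libraries was 0.0170 to 0.0320 in the 6 resting inputs and 0.00447 to 0.0216 in the 6 depolarized ones, so that the conditions overlapped, and the median over all genes also went down, from 0.667 to 0.439. In the knockdown inputs the ratio was 0.0374 and 0.0377 at rest and 0.0169 and 0.0190 with KCl. In DHPG inputs it was 0.0325 ± 0.0016 and in DHPG pulldowns 0.135 ± 0.015 (SD, n = 3 each). In Oaz2 the density after the site was 25.8% of that before it over all inputs (1779 and 1398 counts), at the 16.2 percentile of 9733 genes divided in the same way for its site, with a median of 0.533, and 49.2% in pulldowns. One piece of 168 nt, nt 384 to 551, held 1400 of the Oaz2 counts after the site in inputs. None of the windows after the Oaz1 site, and 18.5% of those in the Oaz1 piece with the most counts before it, occur once in the genome, so these ratios may be changed by how reads were assigned, which was not tested.

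**Figure D5:**
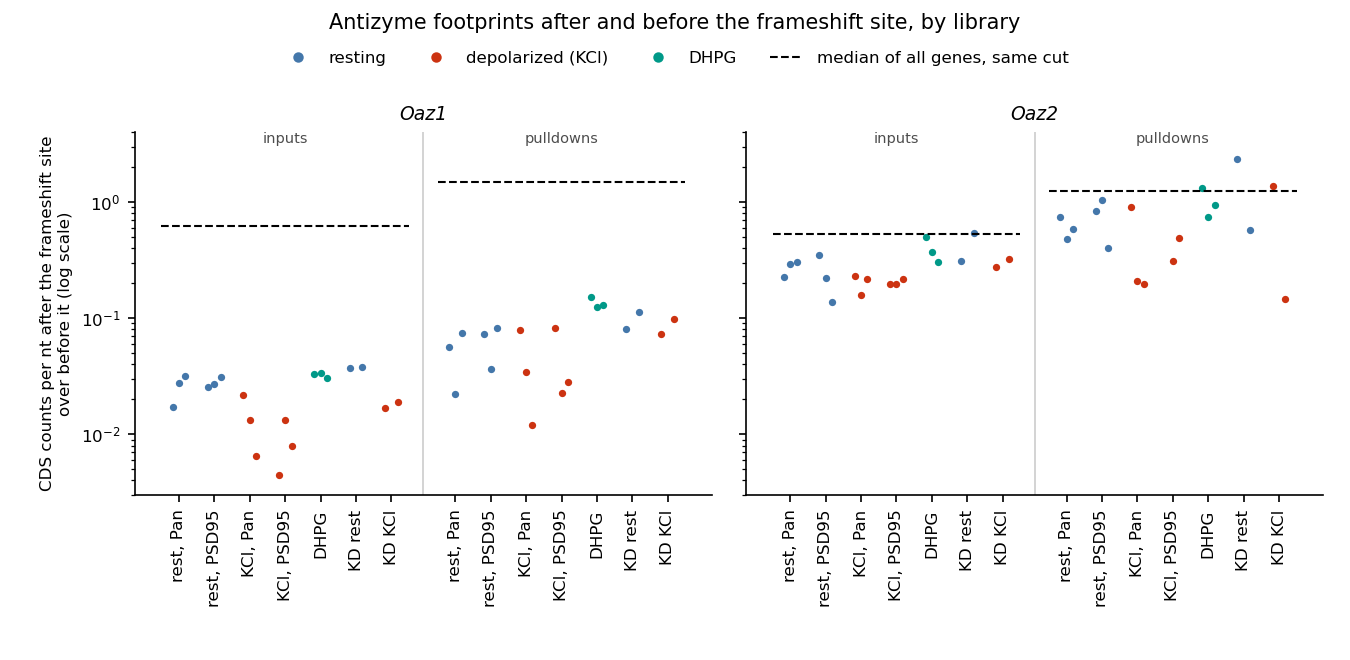
Density of footprints after the frameshift site relative to before it (log axis) for Oaz1 and Oaz2, 1 point per library, in the groups of the study, with the median of all genes, each divided at its first border between CDS pieces at or after the same distance, as a dashed line; KD marks the eIF4G2 knockdown, and 1 depolarized TurboID-PSD95 pulldown is left out for Oaz2 because it had no counts before the site. Oaz1 lay at 0.0170 to 0.0320 in the resting and at 0.00447 to 0.0216 in the depolarized inputs of the KCl experiment.

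The synthases Srm and Sms and the acetyltransferase Sat1 were not called with KCl. Srm CDS counts lay at 60.2 to 133 CPM and Sms counts at 14.1 to 30.1 CPM over all inputs. With KCl their log2 differences were 0.09 and 0.01 in inputs and −0.34 and −0.01 in TurboID-PSD95 pulldowns, and those of Sat1 were −0.17 and 0.13. Oaz1 and Oaz2 were at 0.30 and 0.29 in inputs and 0.62 and 0.55 in pulldowns with KCl, also not called. Without replicate 1 of every group Oaz1 was called higher in these pulldowns (0.87, edgeR adjusted p = 0.0459). Without the library that stood apart the pulldown values were 0.04 for Oaz1, −0.32 for Oaz2, −0.48 for Srm, −0.18 for Sms and −0.62 for Sat1, none called.

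Of 30 other genes of polyamine metabolism and its substrates, 26 had enough CDS counts in the KCl experiment. With KCl in inputs, Mat2a, which makes the S-adenosylmethionine that Amd1 uses, rose (log2 0.90, edgeR adjusted p = 4.6e-04), as did the amino acid transporter subunit Slc3a2 (0.52), and spermine oxidase (Smox) fell (−1.21); these 3 of 26 compare with 15.3% of all genes called. In TurboID-PSD95 pulldowns 1 of 26 was called, Mat2a (0.96; 1.18 without the library that stood apart), against 6.59% of all genes. In knockdown inputs Mat2a (0.65), the arginine transporter Slc7a1 (0.57) and the lysosomal polyamine exporter Atp13a2 (0.39) rose and Atp13a3 (−1.48), a related transporter, fell, 4 of 26 against 19.3% of all genes. For 5′ UTR counts with KCl, 1 of 24 rose in inputs (Slc7a1, 1.40) against 0.442% of all genes. In knockdown inputs 2 of 18 rose (Slc7a1, 1.60, and Eif5a, 1.02; edgeR adjusted p = 0.0037 and 0.0145) against 3.41%. In the resting TurboID-PSD95 pulldown the ornithine aminotransferase Oat (0.44), Atp13a2 (0.62) and Atp13a3 (1.29) were higher than in inputs and Eif5a, the protein that carries a spermidine-derived residue, was lower (−0.95), 4 of 26 against 31.1%. The Pan-TurboID pulldown had 4 higher and 2 lower, with Eif5a at −0.89, against 34.2% of all genes. In DHPG inputs 4 were higher than in resting inputs, with Slc7a1 at 1.22 and Mat2a at 0.69, and 2 were lower, with Smox at −0.93, against 32.8% of all genes. Eif5a was also lower in the DHPG pulldown (−1.74) and the knockdown pulldown (−1.42), where 11 and 6 of the 26 were lower and 10 and 6 were higher, against 79.8% and 59.7% of all genes called. In each of these comparisons the share of CDS calls in the list was near or under that over all genes.

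Over the 14 group means of log2 CPM and 7708 genes, the genes with the pattern most like that of a member were Ptprt (Pearson r = 0.975) and Mpped1 (0.973) for Odc1 and Skil (0.951) and Ip6k2 (0.946) for Azin1. They were Manf and Gm45808 (both 0.991) for Oaz1, Unc119 (0.945) and Pdcd2 (0.914) for Oaz2, and Kpna3 (0.909) and Ppp2r1a (0.899) for Sms. Oaz1 had 939 genes with r over 0.9. Srm had no close match, with Arl4c (0.838) and Lsm11 (0.836) nearest. Amd1 and Sat1, with mean log2 CPM of 3.69 and 1.28, lay under the mean of 4 that searched genes had to reach, and their matches are not given. The points share libraries and depth, and these correlations are descriptions.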

How the data were processed

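Footprints from micrococcal-nuclease monosomes were measured in 38 libraries. The authors trimmed reads with Rfastp, split barcodes with fastq-multx, removed unique molecular identifiers from the reads (whether duplicates were collapsed is not stated), aligned reads to mm10 with Rsubread and counted 5′ ends with plastid over knownGene transcripts, and the deposited counts per transcript are raw counts with no offset for the ribosomal site. Here the longest transcript of each gene was taken, and CPM are counts scaled to 1000000 CDS counts of that library. Total counts were 5906281 to 35643247 per library, and few counts widen the intervals of low genes.

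Groups were compared with edgeR (version 4.0.16; R 4.3.3) quasi-likelihood tests with TMM scaling, fitted across all genes that passed the low-count filter within an experiment, with Benjamini-Hochberg adjustment and a threshold of 0.05. CDS and 5′ UTR counts were fitted separately, and 5′ UTR relative to CDS as an interaction of region and group. Where members are said not to overlap between groups, the share of all genes without overlap is not given. The named genes were the 8 members, the called genes of a list of 30 other pathway genes, and for each member the 2 most alike genes. Alternatives used DESeq2 1.42.0, limma 3.58.1, RLE scaling, no filter, other transcripts, own inputs alone, left-out replicates and a CDS-length trend. Sequences, uORFs and unique windows (28 nt) were read from the genome in Python 3.11.15 with pandas 2.3.3, numpy 2.4.6 and scipy 1.17.1, and figures were drawn with matplotlib 3.10.9. Scripts were tested on simulated data. The members and lists were chosen with earlier results of these data known. The 3′ UTR counts were not used.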

Additional observations from a re-analysis of the deposited data

How the results depend on the processing

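Medians below are log2 differences over the members. Removing the CDS-length trend moved the CDS median of pulldown over input from −0.31 to 0.038 (resting TurboID-PSD95), from −0.33 to 0.29 (DHPG) and from −0.27 to 0.13 (knockdown), and turned the DHPG values of Sat1 and Oaz2 to 0.48 and 0.25 (edgeR adjusted p = 0.38 and 0.12). Without the depolarized TurboID-PSD95 pulldown that stood apart, an alternative chosen after seeing the data, the CDS median with KCl in TurboID-PSD95 pulldowns went from 0.34 to −0.25 and that of the change of enrichment with KCl from 0.28 to −0.35. The causes were not tested.

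Leaving out a replicate of every group gave medians of −0.13 to 0.22 against 0.022 with all libraries (KCl inputs, 5′ UTR relative to CDS), −0.25 to 0.58 against 0.34 (KCl TurboID-PSD95 pulldowns, CDS), −0.27 to 0.35 against 0.28 (change of enrichment, CDS), −1.20 to −0.92 against −0.92 (Pan-TurboID pulldown, relative), −0.45 to −0.29 against −0.33 (DHPG pulldown, CDS), −0.21 to 0.13 against −0.10 (DHPG inputs, CDS) and −0.82 to −0.42 against −0.77 (DHPG inputs, relative). For the knockdown they were −0.23 to −0.10 against −0.27 (pulldown, CDS), −2.16 to −1.67 against −1.69 (pulldown, 5′ UTR), −1.72 to −0.98 against −1.29 (pulldown, relative) and 0.62 to 0.78 against 0.67 (KCl, 5′ UTR). The knockdown median of KCl, relative, went from 0.43 with all libraries to 0.201 and 0.198 without replicate 1 and 2. The remaining ones were 0.0032 to 0.24 against 0.092 (against no knockdown, CDS), −0.33 to 0.047 against −0.18 (against no knockdown, 5′ UTR) and −0.38 to −0.085 against −0.21 (KCl with against without knockdown, CDS). A lone library was assumed to vary like the other groups where the fit allowed a test.

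Of 87 calls of members, each setting recomputed those it applied to. The likelihood ratio test kept 63 of 63, DESeq2 62 of 63, RLE scaling 63 of 63, no low-count filter 84 of 87, the highest-count transcript 87 of 87, limma on log ratios 21 of 24, own inputs alone 14 of 21, the CDS-length trend 9 of 13, and leaving out replicate 1, 2 or 3 kept 72 of 87, 69 of 87 and 27 of 67. In all, 353 of 379 compared results were unchanged. For medians this means a move of less than the spread between replicates. The 8 permutation tests repeated with a pseudocount of 5 count among them, judged by sign and by whether p was under 0.05.

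Same-numbered libraries correlated in their deviations at r = −0.30 to 0.71 (median 0.136, 47 of 84 pairs over 0.1) in the KCl experiment. Within a condition every such pair was over 0.1 (0.124 to 0.71), whereas pairs of a resting and a depolarized library lay at −0.30 to 0.42. None of 3 and 12 pairs was over 0.1 in the DHPG and knockdown experiments. The main test did not take the numbers as pairs, although the study processed samples of a replicate together. It therefore leaves out what the libraries of a replicate share in the KCl experiment, inputs of both constructs among them. The edgeR p-values that use both inputs may thus be too small. The replicate block fits the same effect for resting and depolarized libraries, so it does not take up what is shared within a condition alone. With the replicate block 78 of 79 calls were kept and 14 were gained, and the CDS median of the KCl inputs was 0.18 against 0.19 without it. At 0 to 56 CDS counts a library, Sat1 CDS differences had wide errors (SE 0.69 for the resting TurboID-PSD95 pulldown over inputs).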
